A study of Mus musculus with 6 samples.

Results

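The matrix metalloproteinases (MMPs), the ADAM and ADAMTS metalloproteinases, the HTRA serine proteases and the TIMP inhibitors were followed in cultured newborn mouse ovaries given platelet-rich plasma (PRP). Members were the genes of the count table whose symbol is Mmp, Adam, Adamts, Timp or Htra followed by a number, without the ADAMTS-like genes. This gave 68 of 27098 genes, namely 20 MMP, 21 ADAM, 19 ADAMTS, 4 TIMP and 4 HTRA genes.

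Ovaries of mice 3 days after birth were kept in DMEM/F12 with antibiotics for 2 h, alone (3 libraries, control) or with 2% PRP (3 libraries), and their messenger RNA was sequenced. The PRP was of human origin and had been activated with thrombin according to the series text, and no library of ovaries given thrombin alone or another plasma product is labelled. The labels state neither the strain or genotype of the mice, nor whether ovaries were pooled for a library, nor whether replicates are separate animals or cultures. The p-values therefore measure the spread between these libraries, which may be technical.

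These enzymes remodel the space around cells. MMPs are secreted or membrane-bound zinc enzymes, made as inactive precursors, that cut collagens and other matrix proteins; TIMPs block them by binding the active site. ADAMs sit in the cell membrane and release the outer parts of growth factors and receptors, ADAMTS enzymes are secreted and cut proteoglycans and procollagens, and HTRA enzymes are serine proteases that need no precursor cleavage. In the ovary, matrix turnover by these families accompanies follicle growth and ovulation.

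Library totals were 35568000 to 36568367 counts, and levels are given as CPM, counts scaled to a common library size, with the TMM method, which equalises the bulk of genes between libraries. Markers of oocytes, granulosa cells, stromal fibroblasts, endothelium and surface epithelium were all detected, as a whole ovary holds. Of 6 spermatogenic markers only 2 were in the table, and these summed to at most 0.390 CPM. Control 3 stood apart in blood-cell genes: the 7 erythroid markers summed to 1532 CPM there and to 108 to 225 CPM in the other libraries, and the 6 neutrophil markers of the table to 38.4 against 1.32 to 2.45 CPM. For Timp1, Adamts9, Mmp13, Htra1 and the members' median, values without that library are also given. Most other values are given only with it. Libraries of the same number deviated together from their group means (correlations 0.240, 0.398 and 0.334), so that values of a fit blocked on that number stand beside those of the unpaired fit. This pairing comes from the expression values and from no label. Coordinates are RefSeq gene spans on GRCm38.p6.

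Per kilobase of transcript, the ovary's most abundant members were enzymes and inhibitors of matrix turnover. Mmp2, a gelatinase, averaged 147 CPM per kilobase over the 6 libraries (range 117 to 169), and Mmp14, the membrane-type MMP that activates the MMP2 precursor, averaged 138 (range 116 to 154). Htra1 at 112 and Timp1 at 97.5 CPM per kilobase came next, and the ranges of these 4 genes overlapped from each to its neighbour. Timp3 (62.1) and Timp2 (60.6) followed with overlapping ranges of 56.4 to 68.4 and 55.2 to 64.8 CPM per kilobase. Then came a band of genes between 30.1 and 44.1 CPM per kilobase that held Htra3, Adamts10, Adamts2, Adamts19, Mmp23, Adam10, Mmp11, Adamts1 and Adamts9. At the other end lay the second gelatinase, Mmp9, at 0.215 CPM per kilobase, and most ADAM genes known from testis.

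**Figure D1:**
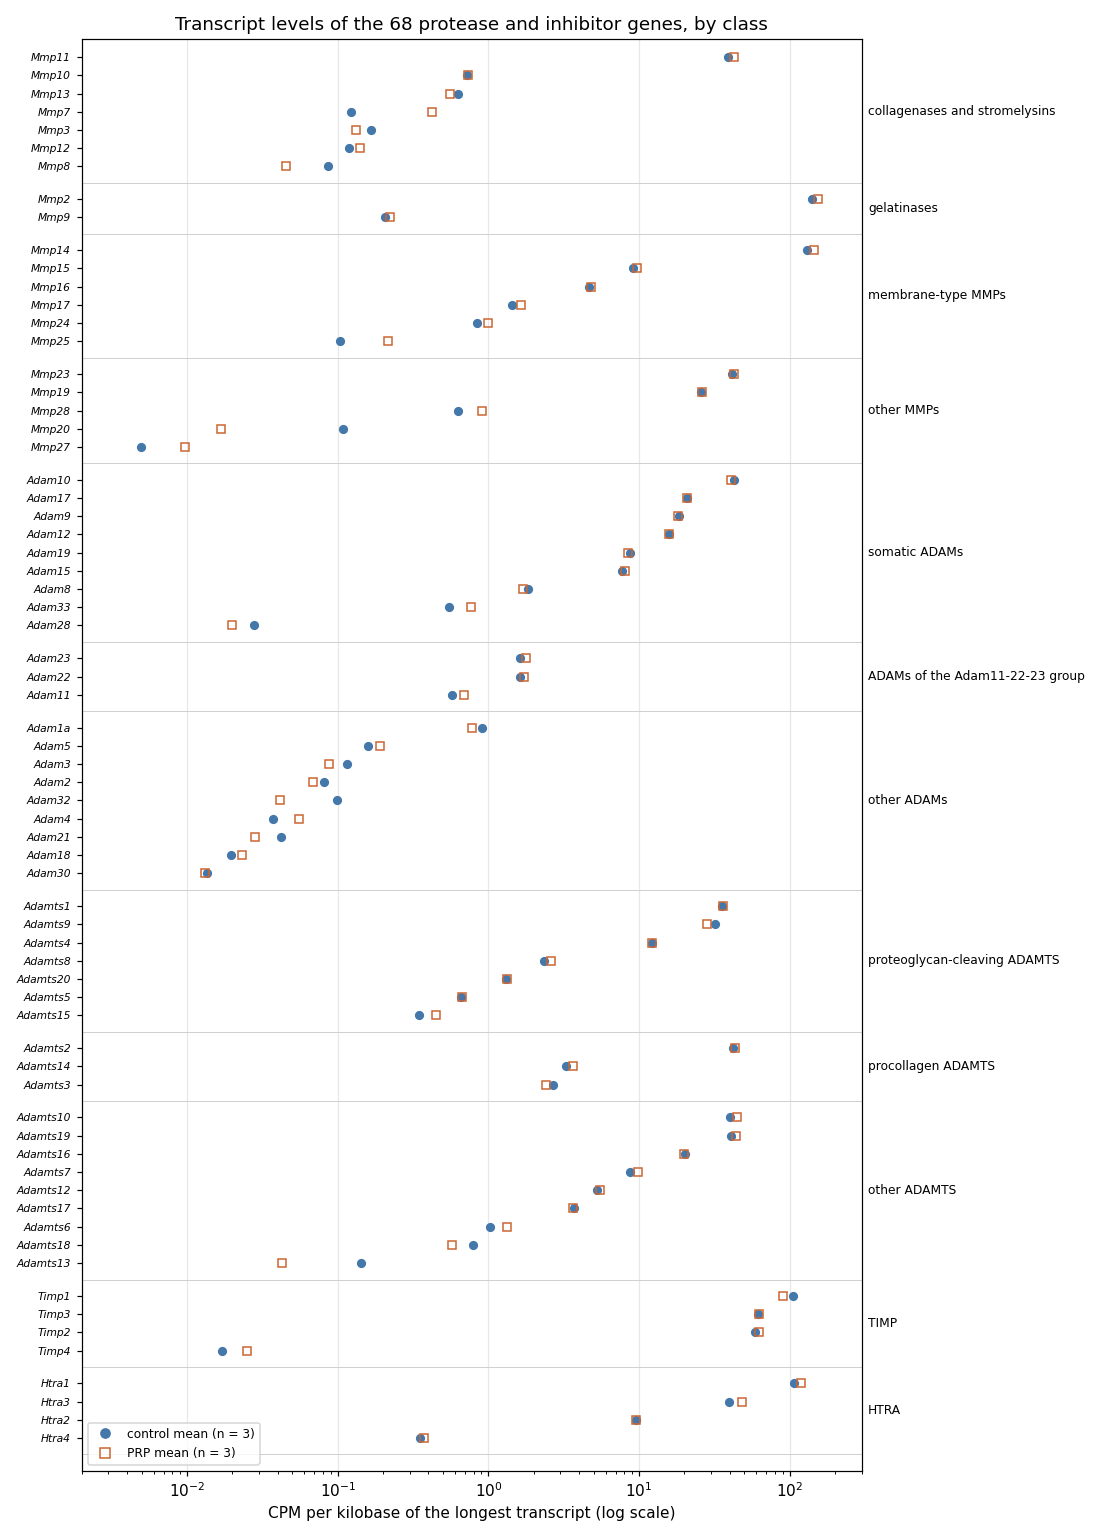
Mean level of each of the 68 members in control (filled circles) and PRP (open squares), as CPM per kilobase of the longest transcript on a log axis, grouped by class, with n = 3 libraries per mean. Mmp2, Mmp14, Htra1 and Timp1 lie farthest to the right, and the symbols of the 2 groups nearly coincide for most members above 1 CPM per kilobase.

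Summed over all members, proteases and inhibitors took 4196 ± 358 CPM in control and 4384 ± 271 CPM with PRP (mean ± SD, n = 3). By family, the MMP sum was 1182 ± 111 and 1289.5 ± 97.0 CPM, the HTRA sum 351 ± 37.3 and 400.0 ± 31.4 CPM, and the TIMP sum 600.1 ± 48.5 and 608 ± 13.5 CPM (SD, n = 3). The ADAMTS sum was 1449 ± 151 and 1480.0 ± 122 CPM, and the ADAM sum 613 ± 16.2 and 606 ± 18.9 CPM (SD, n = 3). These sums are not corrected for transcript length and so do not rank the families. The libraries of the 2 groups overlapped in each of these sums. Within same-number pairs the total, the MMP sum and the HTRA sum were higher with PRP in 3 of 3, the ADAMTS and TIMP sums in 2 of 3 and the ADAM sum in 1 of 3.

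The comparison of PRP with medium alone asked which transcripts respond within 2 h. Among the proteases and inhibitors 1 gene, Htra3, rose, by 22.1%, and the call was made with the replicate number as a block and not in the unpaired fit. No member fell past the threshold of an adjusted p of 0.05 (Benjamini-Hochberg over all 17475 genes tested). Of the 68 members, 56 passed the filter on low counts and were tested. In the unpaired edgeR fit 0 of the 56 passed, where 0% of all genes did, and 3 had an unadjusted p under 0.05 (Htra3, Adamts9 and Adamts13), where 3.19% of all genes did. DESeq2 and limma-voom without the block also called 0 members, and each had 3 at that unadjusted level. With the block 1 of 56 rose and 0 fell, where 0.0801% of all genes rose and 0.0401% fell. Without the filter on low counts, an alternative added after seeing the data, the blocked fit called 333 genes, 143 higher and 190 lower. It called 5 members: Htra3, Htra1 and Mmp14 higher and Timp1 and Adamts9 lower. That fit also took in the scarce genes, so the percentages above do not apply to it. The share of all its genes that passed is not given, so the 5 are no result about the members. Blocked limma-voom and blocked edgeR without robust estimation, neither added after seeing the data, called 0 members.

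Below the threshold the members leaned toward higher values with PRP. The unpaired log2 fold change lay above 0 in 39 of 56 members (69.6%), against 50.4% of all genes, with a median of 0.064 beside 0.0013 over all genes. In 19 members (33.9%) the PRP library was higher in all 3 same-number pairs, against 16.8% of all genes, and in 4 (7.14%) it was lower in all 3, against 16.4%. The 4 were Timp1, Adamts9, Adam10 and Adamts13. Among the 33 members with a mean of 10 CPM or more, 11 were higher in all 3 pairs, where 18.3% of all genes of that level were. By family, the log2 fold change lay above 0 in 15 of 16 tested MMPs (median 0.14), 3 of 4 HTRA genes (median 0.13), 12 of 19 ADAMTS genes (median 0.034), 2 of 3 TIMPs (median 0.029) and 7 of 14 ADAMs (median -0.0027). Differences between the families were not tested. With the block, 11 members (19.6%) had an unadjusted p under 0.05 and a value above 0, against 5.31% of all genes, and 4 (7.14%) had one below 0, against 5.91%. The 11 were Htra3, Htra1, Mmp14, Mmp2, Mmp11, Mmp7, Timp2, Adamts7, Adamts10, Adamts19 and Adamts6, and the 4 were Adamts9, Timp1, Adamts13 and Adamts18. Groups without overlap were found in 2 members with PRP above (Htra3 and Mmp25) and in 3 with PRP below (Adam10, Adamts9 and Adamts13), where the shares over all genes were 4.34% and 4.87%. The members' pair medians were 0.077, 0.11 and 0.022 for numbers 1, 2 and 3. Whether the members differ from other genes was not tested, and the median was 0.0065 without control 2 and 0.11 without control 3.

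Marker lists of most, not all, ovarian cell types lay above 0. Over all genes, 50.4% had a log2 fold change above 0 and 0.12% passed with the block. Of the 9 stromal fibroblast markers, 8 had a log2 fold change above 0, with a median of 0.16, and they summed to 4796 to 6066 CPM in control and 5148 to 6419 CPM in PRP. None of the 9 was at 0, and 0 passed with the block. Ovarian surface epithelium markers, of which 7 of 8 lay above 0 and 1 passed with the block, summed to 446 to 478 CPM in control and 461 to 554 CPM in PRP. Oocyte markers lay above 0 in 8 of 9, with 2 passing with the block, and summed to 1668 to 2279.6 CPM in control and 1805 to 2556 CPM in PRP. Markers above 0 numbered 7 of 8 for endothelium, 6 of 8 for granulosa cells, 6 of 8 for pericytes and smooth muscle and 4 of 9 for leukocytes, with 0 passing in each. Steroidogenic markers lay above 0 in 1 of 4 tested, with a median of -0.24 and 0 passing. The part of these cell types in the protease values was not tested, and in whole-ovary RNA more cells of a type and more RNA per cell cannot be told apart.

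**Figure D2:**
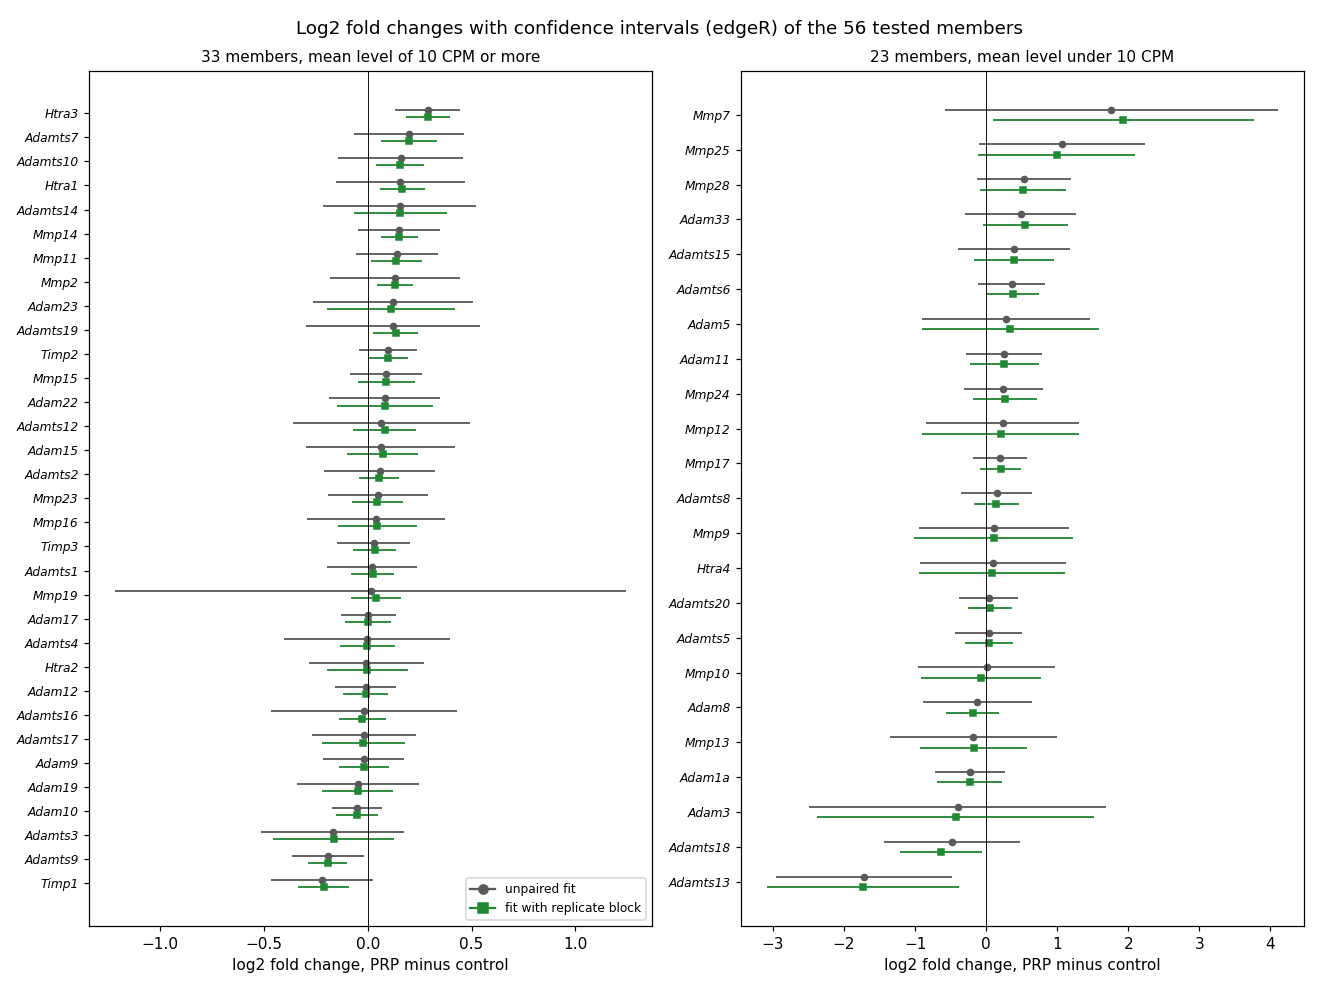
Log2 fold change, PRP minus control, of the 56 tested members with its 95% interval, unpaired (grey circles) and blocked on the replicate number (green squares), both from edgeR. Members with a mean of 10 CPM or more are on the left and the others on the right, on separate scales. Htra3 lies highest on the left and Timp1 and Adamts9 lowest, and blocked intervals are narrower for most abundant members.

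The HTRA family held the called gene. Htra3 (Entrez 78558, chromosome 5, 35652026 to 35679813) encodes a secreted serine protease with an insulin-like growth factor binding domain that cuts proteoglycans and restrains TGF-beta signalling. It stood at 115, 109 and 103 CPM in control 1, 2 and 3 and 142, 131 and 127 in PRP 1, 2 and 3. Every PRP library lay above every control, and the log2 difference was 0.30, 0.27 and 0.30 within numbers 1, 2 and 3. In the unpaired edgeR fit the log2 fold change was 0.29 ± 0.069 (SE; 95% interval 0.13 to 0.44, unadjusted p = 0.00228), which did not pass over all genes (adjusted p = 0.9998). With the block it was 0.29 ± 0.050 (SE; 95% interval 0.18 to 0.39, edgeR adjusted p = 0.0368), higher in 3 of 3 pairs. The call also passed in 5 of 11 blocked alternatives, all 5 added after seeing the data. They were DESeq2 (adjusted p = 0.00301), the other scalings and the other filters. It was lost in limma-voom (adjusted p = 0.0669), without robust estimation in edgeR (0.12), after correction for GC content and transcript length (0.102), and without number 1, 2 or 3 (0.18, 0.225 and 0.113). Over these blocked alternatives its log2 fold change ran from 0.23 to 0.30.

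Since Htra3 was the called member, the 250 bases before its listed RefSeq start site (GRCm38.p6, minus strand, chr5:35679781-35680030) are shown 5′ to 3′. The last of these bases lie inside the gene's RefSeq span, which ends at 35679813. The letters of 4 promoter motifs were searched on both strands and would stand in capitals. For the AP-1 site the letters were TGAGTCA. The letters of the TATA box were TATAAA. A GC box was searched as GGGCGG. The cyclic AMP response element was searched as TGACGTCA. The window of Htra3 holds none of them.
Htra3: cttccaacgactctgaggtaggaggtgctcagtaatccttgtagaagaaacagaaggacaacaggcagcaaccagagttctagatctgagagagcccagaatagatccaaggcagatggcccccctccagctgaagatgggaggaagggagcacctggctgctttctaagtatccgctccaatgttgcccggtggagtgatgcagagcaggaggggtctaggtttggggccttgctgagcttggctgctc
Among all 32851 windows of this length, 4.46% held the AP-1 letters, 12.4% the TATA letters, 32.7% the GC box letters and 1.55% those of the cyclic AMP response element, which were found in 0 of the 40 members with a sequence.

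Htra1 (Entrez 56213, chromosome 7, 130936203 to 130985658), a close relative of Htra3 that cleaves fibronectin and other matrix proteins, stood at 233, 175 and 243 CPM in control 1, 2 and 3 and 263, 213 and 250.2 in PRP 1, 2 and 3. The groups overlapped because control 2 and PRP 2 were the low libraries of their groups, while PRP was higher within each number. Its blocked log2 fold change was 0.17 ± 0.051 (SE; edgeR adjusted p = 0.211) and its unpaired one 0.16 ± 0.13. Leaving out 1 library in turn, the unpaired value ran from 0.026 (without control 2) to 0.25 (without control 3). Htra2, which encodes a mitochondrial protease released in apoptosis, had 21.5, 22.9 and 27.7 CPM in the controls and 23.6, 22.2 and 25.9 CPM with PRP, with an unpaired log2 interval of -0.28 to 0.27. Its span overlaps Loxl3 and Aup1, so that its reads are uncertain. Htra4, known from placenta, had 19 to 41 counts per library and an interval of -0.93 to 1.12.

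**Figure D3:**
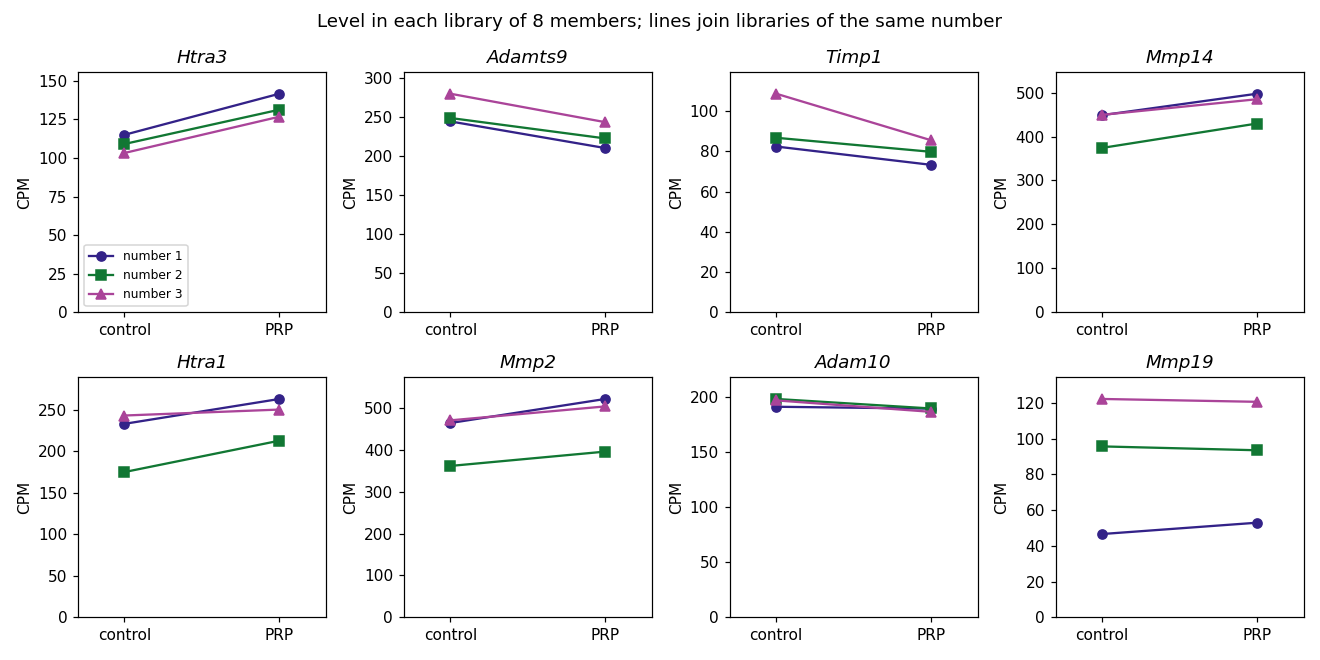
Level in CPM of 8 members in each library, with lines that join the control and PRP libraries of the same number (circles, number 1; squares, number 2; triangles, number 3). The PRP end of every line lies higher for Htra3, Htra1, Mmp14 and Mmp2 and lower for Adamts9, Timp1 and Adam10, of which Htra3 alone passed the blocked test, and for Mmp19 the numbers lie far apart while the lines are nearly flat.

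Among the inhibitors, Timp1 had the lowest log2 fold change of all members with a mean of 10 CPM or more, though it did not pass. Timp1 (Entrez 21857, chromosome X, 20870166 to 20874737), a secreted inhibitor whose transcript is inducible by cytokines and growth factors, stood at 82.4, 86.8 and 109 CPM in control 1, 2 and 3 and 73.3, 79.8 and 85.6 in PRP 1, 2 and 3. Control 3 was the highest of the 6 libraries and PRP 1 the lowest, the groups overlapped, and PRP was lower within each number. The log2 fold change was -0.22 ± 0.11 unpaired and -0.21 ± 0.057 with the block (SE; edgeR blocked adjusted p = 0.168). Without control 3, the library with the blood-cell transcripts, the unpaired value was -0.088. The span of Timp1 overlaps Syn1, so that its reads are uncertain.

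Timp2, which inhibits MMPs and also takes part in the activation of the MMP2 precursor by MMP14, stood at 226, 205 and 221 CPM in the controls and 240.4, 226 and 231 CPM with PRP. Its libraries varied little, PRP was higher within each number, and the log2 fold change was 0.097 ± 0.061 unpaired and 0.097 ± 0.046 with the block (SE; edgeR adjusted p = 0.444). Without control 2 the unpaired value was 0.057. Timp3, which binds the extracellular matrix and also inhibits ADAM17 and the aggrecan-cleaving ADAMTS enzymes, had 281, 266 and 323 CPM in the controls and 285, 296 and 307 CPM with PRP, with no common direction over the pairs and an unpaired interval of -0.15 to 0.20. Timp4 was nearly absent, with 0 to 9 counts per library, and was not tested. Timp2, Timp3 and Timp4 share their spans with Cep295nl, Syn3 and Syn2.

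Of the gelatinases, Mmp2 was among the most abundant members and Mmp9 was close to the detection limit. Mmp2 (Entrez 17390, chromosome 8, 92827290 to 92853421) encodes the gelatinase of stromal cells, which cuts denatured and basement membrane collagen. It stood at 464, 361 and 470.0 CPM in control 1, 2 and 3 and 521, 395 and 503 in PRP 1, 2 and 3. Number 2 was the low one in both groups, the groups overlapped, and PRP was higher within each number by 0.17, 0.13 and 0.099 on the log2 scale. The log2 fold change was 0.13 ± 0.13 unpaired and 0.13 ± 0.041 with the block (SE; edgeR adjusted p = 0.217). With 1 library left out the unpaired value ran from 0.021 (without control 2) to 0.25 (without PRP 2). Mmp9, the gelatinase of leukocytes and osteoclasts, had 16 to 35 counts per library and a log2 interval of -0.95 to 1.17, so that a change within these limits was not detectable at this depth.

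All 6 membrane-type MMPs had a log2 fold change above 0, with a median of 0.17, and 5 of the 6 were higher with PRP in all 3 pairs, though none passed. Mmp14 (Entrez 17387, chromosome 14, 54431598 to 54442456) encodes the collagenase anchored in the membrane that activates the MMP2 precursor. It stood at 449, 374 and 449.6 CPM in control 1, 2 and 3 and 498, 429.8 and 485 in PRP 1, 2 and 3. Number 2 was again the low one in both groups, and PRP 2 lay below controls 1 and 3. Its log2 fold change was 0.15 ± 0.087 unpaired and 0.15 ± 0.042 with the block (SE; edgeR adjusted p = 0.173). With 1 library left out the unpaired value ran from 0.070 (without control 2) to 0.21 (without PRP 2). The ratio of Mmp14 to Timp1 counts within a library, which no scaling affects, was 4.63 ± 0.710 in control and 5.95 ± 0.741 in PRP (SD, n = 3). For numbers 1, 2 and 3 it was 5.44, 4.31 and 4.13 in control and 6.79, 5.38 and 5.67 with PRP. PRP 2 lay below control 1. Within each number Mmp14 was higher and Timp1 lower with PRP. The higher ratio in 3 of 3 pairs follows from those values and is no further result. Control 3, where Timp1 was highest, had the lowest ratio. Against Timp2 the ratios differed little: Mmp14 to Timp2 was 1.95 ± 0.107 in control and 2.03 ± 0.107 in PRP (SD, n = 3), and Mmp2 to Timp2 was 1.98 ± 0.190 in control and 2.03 ± 0.244 in PRP (SD, n = 3). Mmp15 had 44.2, 47.7 and 48.2 CPM in the controls and 47.9, 52.2 and 49.1 CPM with PRP and a log2 fold change of 0.090 ± 0.077. Mmp16, the exception among the pairs, had 20.6, 21.6 and 28.2 CPM in the controls and 21.4, 23.5 and 27.5 CPM with PRP and a value of 0.041 ± 0.15 (SE). Mmp17 and Mmp24 were lower in level, with log2 fold changes of 0.19 ± 0.17 and 0.24 ± 0.25 (SE). Mmp25, a leukocyte-type member, had 17, 21 and 12 counts in control 1, 2 and 3 and 58, 25 and 24 in PRP 1, 2 and 3, where PRP 1 alone held more than the 2 other PRP libraries together. Its groups did not overlap, its log2 fold change was 1.07 ± 0.52 (SE), and without PRP 1 it was 0.53.

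The secreted collagenases, stromelysins and their neighbours were scarce. Of 8 MMP genes that lie side by side on chromosome 9 between 7272514 and 7699585 (Mmp13, Mmp12, Mmp3, Mmp10, Mmp8, Mmp27, Mmp20 and Mmp7), none averaged above 0.725 CPM per kilobase, against a median of 7.07 for the 12 other MMPs. Only 4 of the 8 could be tested. Mmp13, an interstitial collagenase, had 34, 48 and 97 counts in control 1, 2 and 3 and 24, 72 and 65 in PRP 1, 2 and 3, with control 3 the highest. Mmp10, a stromelysin, had 45, 38 and 50 counts in control 1, 2 and 3 and 23, 49 and 64 in PRP 1, 2 and 3. Neither gene kept a direction over the pairs, and their log2 intervals were -1.35 to 0.99 and -0.96 to 0.97. Without control 3 the value of Mmp13 turned from -0.18 to 0.37. Mmp8, the neutrophil collagenase, had 20 counts in control 3 and 0 to 8 in the other libraries, beside the neutrophil markers named above. Mmp7, a matrilysin, had 12, 1 and 1 counts in control 1, 2 and 3 and 20, 3 and 26 in PRP 1, 2 and 3 and a log2 fold change of 1.76 ± 1.04 (SE). Mmp11, a stromelysin that lies outside the cluster, was instead abundant, at 95.0, 82.9 and 87.7 CPM in the controls and 107, 98.2 and 87.4 CPM with PRP (log2 fold change 0.14 ± 0.087 unpaired and 0.14 ± 0.058 with the block, edgeR adjusted p = 0.374). Its unpaired value with 1 library left out ran from 0.068 (without PRP 1) to 0.21 (without PRP 3).

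In 5 of the 8 scarce cluster genes a window before a RefSeq start site held the letters of an AP-1 site. AP-1, the dimer of FOS and JUN proteins, drives several MMP genes through a site near the start. Mmp12 and Mmp7 have 2 start sites each in the table: the letters stand before the downstream start of Mmp12 and the upstream start of Mmp7, and the other window of each holds none. The 5 stretches are shown 5′ to 3′ on the gene's strand (all plus strand, RefSeq, GRCm38.p6), with the AP-1 letters, on either strand, and the TATA box letters in capitals.
Mmp13, chr9:7272459-7272513: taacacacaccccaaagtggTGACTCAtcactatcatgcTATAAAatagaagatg
Mmp12, chr9:7347310-7347373: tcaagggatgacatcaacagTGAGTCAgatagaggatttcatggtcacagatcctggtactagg
Mmp3, chr9:7445756-7445821: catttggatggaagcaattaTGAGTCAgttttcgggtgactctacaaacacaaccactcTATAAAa
Mmp10, chr9:7502259-7502325: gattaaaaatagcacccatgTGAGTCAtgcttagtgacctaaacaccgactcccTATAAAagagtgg
Mmp7, chr9:7692007-7692073: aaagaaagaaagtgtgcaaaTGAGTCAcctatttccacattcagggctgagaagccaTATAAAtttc
For comparison, the 67 bases before a listed start of 3 abundant members are shown with the letters of a GC box, on either strand, in capitals. The Adamts9 stretch lies inside the gene's RefSeq span, which ends at 92944450. For Mmp10, Mmp14 and Adamts9 the 25 bases after the start were not found in a GENCODE transcript of the gene, so these starts are less certain.
Mmp14, plus strand, chr14:54431531-54431597: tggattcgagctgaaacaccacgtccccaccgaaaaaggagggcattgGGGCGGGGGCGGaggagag
Timp1, plus strand, chrX:20870099-20870165: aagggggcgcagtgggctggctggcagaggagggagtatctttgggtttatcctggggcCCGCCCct
Adamts9, minus strand, chr6:92943535-92943601: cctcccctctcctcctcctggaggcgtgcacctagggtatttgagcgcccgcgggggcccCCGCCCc
The AP-1 letters stood within 250 bases before a start in 5 of the 8 cluster genes and in 1 of the 32 other members with a sequence (Adam19). The TATA letters were found in 5 of 8 and 1 of 32 (Adamts1), and the GC box letters in 0 of 8 and 21 of 32. In the stretches of Mmp13, Mmp3, Mmp10 and Mmp7 the AP-1 letters stand before the TATA letters. A match of letters is a description and not a site in use, and 28 of the 68 members had no sequence to search. By level, the 21 members with GC box letters had a median of 20.8 CPM per kilobase and the 6 with AP-1 letters one of 0.432. The log2 fold changes had medians of 0.058 in the 21 tested members with GC box letters and 0.0090 in the 5 tested with AP-1 letters, and 0.06 in all 56.

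**Figure D4:**
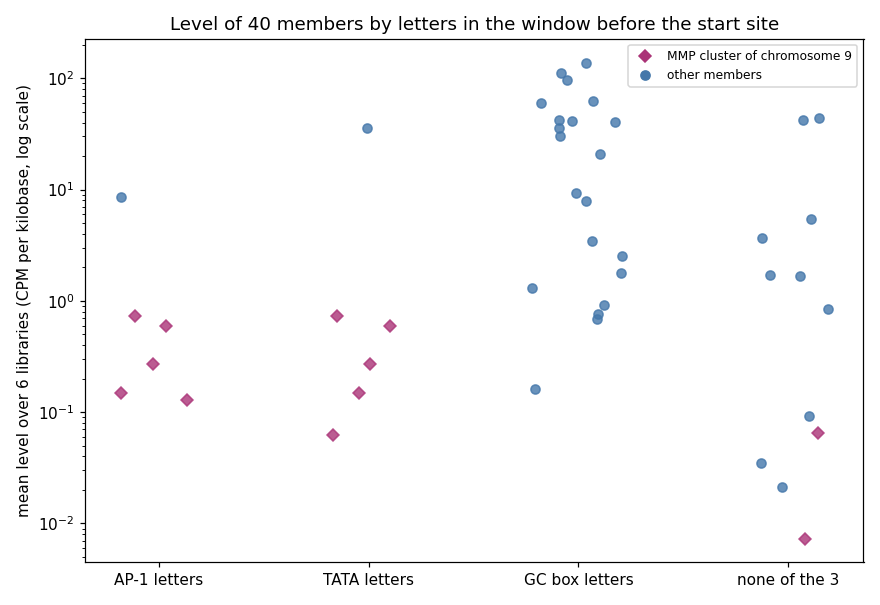
Mean level over the 6 libraries, in CPM per kilobase on a log axis, of the 40 members with a sequence, by the letters found within 250 bases before a start site; diamonds are the MMP cluster of chromosome 9 and circles the other members, and a gene with 2 kinds of letters stands in both columns. The cluster genes lie below 1 CPM per kilobase in every column, and no cluster gene holds GC box letters.

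Of the other MMPs, Mmp19 differed far more between replicate numbers than between treatments. Mmp19, a secreted MMP of stroma and follicle wall, stood at 46.6, 95.6 and 122 CPM in control 1, 2 and 3 and 52.9, 93.4 and 121 in PRP 1, 2 and 3. Libraries of number 1 were the low ones in both groups, and number 3 was on average 2.44-fold above number 1. The replicate number took 99.0% of the variance of its log2 CPM and the treatment 0.162%, and the unpaired interval of its log2 fold change, -1.22 to 1.24, narrowed to -0.081 to 0.16 with the block. Over 90% of the variance followed the number in 9 of the 56 tested members (16.1%), among them Adamts4, Adamts16, Mmp23 and Adamts1, and in 9.18% of all genes. Mmp23, an MMP anchored by its amino-terminal end, had 65.2, 58.9 and 53.2 CPM in the controls and 68.0, 62.0 and 53.3 CPM with PRP (log2 fold change 0.048 ± 0.11, SE). Mmp28, an MMP of epithelia, had 2.06, 2.59 and 1.82 CPM in the controls and 3.21, 2.29 and 3.85 CPM with PRP (log2 fold change 0.53 ± 0.29, SE). The spans of Mmp19, Mmp23 and Mmp28 overlap Tmem198b, Mib2 and 1700020L24Rik.

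**Figure D5:**
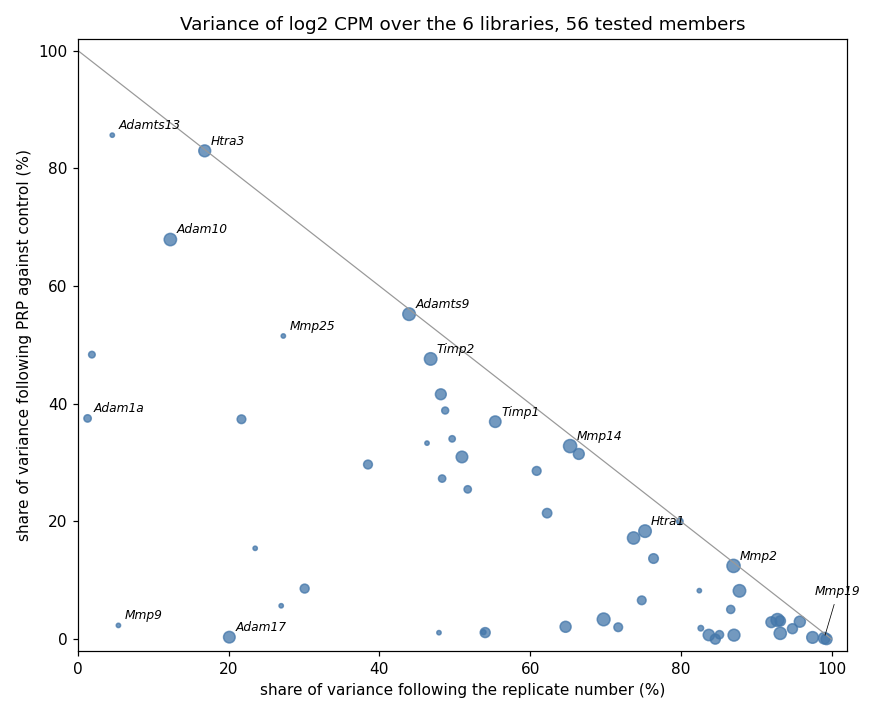
Share of each tested member's variance of log2 CPM over the 6 libraries that followed the replicate number (x axis, %) and PRP against control (y axis, %); larger points are more abundant members, and the line marks where both shares add to 100%. Htra3 lies near the line at 16.8% and 83.0%, and Mmp19 at the lower right.

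The 3 most abundant ADAM sheddases per kilobase had log2 fold changes near 0. Adam10 (Entrez 11487, chromosome 9, 70678944 to 70780229), which releases Notch, cadherins and EGF-family ligands from the cell surface, stood at 191, 198 and 197 CPM in control 1, 2 and 3 and 189, 189 and 186 in PRP 1, 2 and 3. All PRP libraries lay below all controls, yet by little: the log2 fold change was -0.052 ± 0.053 (SE; 95% interval -0.17 to 0.068, edgeR blocked adjusted p = 0.743). Adam17, the sheddase of TNF and of EGF-receptor ligands, whose span overlaps Iah1, stood at 91.8, 93.6 and 93.0 CPM in the controls and 95.9, 90.4 and 92.8 CPM with PRP. The groups overlapped, and the log2 interval was -0.13 to 0.13. Adam9, a sheddase of wide expression, had 73.7, 66.9 and 81.7 CPM in the controls and 69.7, 71.4 and 78.3 CPM with PRP and an interval of -0.21 to 0.18. Over the 8 tested members of the somatic group the median log2 fold change was -0.014, with 3 above 0 and 5 below, and 0 passed in either fit. Their values ran from -0.13 to 0.49.

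Adam11, Adam22 and Adam23, whose proteins lack protease activity and act as adhesion molecules and receptors for LGI proteins, were all present. Adam22 had 13.7, 16.2 and 15.3 CPM in the controls and 15.2, 16.0 and 16.7 CPM with PRP (log2 fold change 0.081 ± 0.12, SE). Adam23 had 11.5, 10.3 and 9.45 CPM in the controls and 9.45, 13.8 and 10.8 CPM with PRP (log2 fold change 0.12 ± 0.17, SE). Adam11, the lowest of them, was higher with PRP in all 3 pairs, at 3.46, 2.84 and 2.53 CPM in the controls and 3.62, 3.81 and 3.07 CPM with PRP (log2 fold change 0.25 ± 0.24, SE). The 9 remaining ADAM genes, many known from testis and sperm, were near the detection limit apart from Adam1a, which had 4.21, 4.90 and 3.95 CPM in the controls and 3.90, 3.12 and 4.10 CPM with PRP and a log2 fold change of -0.23 ± 0.22 (SE). Adam5 and Adam3 had 8 to 22 and 1 to 20 counts per library, with log2 intervals of -0.90 to 1.45 and -2.50 to 1.69.

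Within the ADAMTS family, 12 of 19 members had a log2 fold change above 0 and 0 passed in either fit. Among the enzymes that cut proteoglycans, Adamts9 (Entrez 101401, chromosome 6, 92772699 to 92944450), which cleaves versican and aggrecan, stood at 244, 248 and 279 CPM in control 1, 2 and 3 and 209.8, 222 and 243 in PRP 1, 2 and 3. Every PRP library lay below every control. The log2 fold change was -0.19 ± 0.077 unpaired (SE; 95% interval -0.37 to -0.020, edgeR unadjusted p = 0.0329) and -0.19 ± 0.045 with the block (SE; adjusted p = 0.125), lower in 3 of 3 pairs. Without control 3 the unpaired value was -0.13. Its span overlaps 3 non-coding genes of the table (A730049H05Rik, Gm15737 and 9530026P05Rik). Adamts1, which cleaves versican in the ovulating follicle, stood at 187, 151 and 186 CPM in the controls and 190.1, 161 and 179.6 CPM with PRP, with number 2 low in both groups and a log2 interval of -0.20 to 0.24. Adamts4, an aggrecan-cleaving enzyme, had 60.1, 42.0 and 59.1 CPM in the controls and 58.0, 43.0 and 59.8 CPM with PRP, nearly the same series of values in both groups, and an interval of -0.40 to 0.40.

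The enzymes that trim procollagens were led by Adamts2, at 328, 261 and 320.2 CPM in the controls and 358, 273 and 315 CPM with PRP. Its groups overlapped, and the log2 fold change was 0.058 ± 0.12 (SE). Its relative Adamts14 had 16.3, 20.5 and 14.5 CPM in the controls and 20.6, 20.7 and 15.7 CPM with PRP (log2 fold change 0.15 ± 0.16, SE). Adamts3, the third of the group, had 9.81, 9.75 and 12.3 CPM in the controls and 8.68, 10.1 and 9.53 CPM with PRP (log2 fold change -0.17 ± 0.15, SE). The spans of Adamts2 and Adamts14 overlap Gm39819 and Gm29861.

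Among the other ADAMTS genes, Adamts10, whose protein binds fibrillin, stood at 173, 142 and 183 CPM in the controls and 213, 156 and 186 CPM with PRP, higher in 3 of 3 pairs, with log2 fold changes of 0.16 ± 0.13 unpaired and 0.16 ± 0.055 with the block (SE; edgeR adjusted p = 0.277). With 1 library left out the unpaired value ran from 0.045 (without PRP 1) to 0.27 (without PRP 2). Adamts19 had 215, 162 and 251 CPM in the controls and 241, 189.6 and 252 CPM with PRP and 0.13 ± 0.051 with the block (SE; edgeR adjusted p = 0.322). Adamts16 had 83.4, 118 and 106 CPM in the controls and 76.8, 117 and 110.3 CPM with PRP and an unpaired interval of -0.46 to 0.43. In both Adamts19 and Adamts16 the libraries differed more by number than by treatment. Adamts13, the protease of von Willebrand factor, had 18, 27 and 24 counts in control 1, 2 and 3 and 9, 8 and 4 in PRP 1, 2 and 3. All PRP libraries were lower, at a few counts each, and the log2 fold change was -1.72 ± 0.55 (SE; 95% interval -2.96 to -0.49, edgeR unadjusted p = 0.0115, blocked adjusted p = 0.294). Its span overlaps Gm36649, and that of Adamts16 overlaps Gm36529 and Gm36607. Adamts7, which cleaves cartilage oligomeric matrix protein and is named here after its values were seen, had 46.6, 40.3 and 52.5 CPM in the controls and 55.8, 46.4 and 57.6 CPM with PRP and a blocked log2 fold change of 0.20 ± 0.065 (SE; edgeR adjusted p = 0.232).

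The 12 members under the filter on low counts had between 3 and 58 counts over the 6 libraries together and at most 22 in any library. They were 6 ADAM genes of the testis group (among them Adam2, Adam32 and Adam4), the somatic Adam28, 4 MMPs (Mmp3, Mmp8, Mmp20 and Mmp27) and Timp4.

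Genes that act with these families were examined as 7 lists. In the unpaired edgeR fit 0 of their 113 tested members passed, and 0 did with the block. At an unadjusted p under 0.05 there was 1 (0.885%) unpaired, where 3.19% of all genes were, and with the block 18 (15.9%) higher and 7 (6.19%) lower, where 5.31% and 5.91% of all genes were. Of 22 matrix substrates, 15 had a log2 fold change above 0, with a median of 0.066. Their medians within numbers 1, 2 and 3 were 0.16, 0.043 and -0.014, so that number 3 did not share the direction. With the block 8 (36.4%) had an unadjusted p under 0.05 and a value above 0, against 5.31% of all genes, and 1 (4.55%) one below 0, against 5.91%. Col3a1 and Col1a1, fibrillar collagens of the stroma, had log2 fold changes of 0.15 ± 0.037 and 0.17 ± 0.050 with the block (SE; edgeR adjusted p = 0.153 and 0.221). Within numbers 1, 2 and 3 the log2 differences were 0.30, 0.21 and 7.0e-05 for Col1a1 and 0.24, 0.11 and 0.081 for Col3a1. Col1a1 is also among the stromal fibroblast markers above. Of 12 tested cathepsins and cystatins, 10 lay above 0 with a median of 0.098. Cst3, a secreted inhibitor of cysteine cathepsins, stood at 178, 152 and 156 CPM in the controls and 206, 168 and 180.2 CPM with PRP (blocked log2 fold change 0.19 ± 0.048, edgeR adjusted p = 0.147), and the cathepsin gene Ctsz had a blocked value of 0.16 ± 0.060.

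In the plasminogen activator and serpin list 8 of 11 tested members lay above 0, with Serpinf1, which encodes an anti-angiogenic serpin, at 0.20 ± 0.058 and Serpinb2, an inhibitor of plasminogen activators, at -0.52 ± 0.21 with the block (SE). Of 14 astacins and other surface metallopeptidases 9 lay above 0 (Anpep 0.20 ± 0.072, Pcolce 0.10 ± 0.049), and of 7 ADAMTS-like genes 4 did (Thsd4 0.19 ± 0.078, Adamtsl2 0.29 ± 0.18). The 19 tested activators and regulators were split, with 10 above 0 and 9 below. A2m, a broad protease inhibitor of plasma, stood at 3.37, 2.54 and 3.69 CPM in the controls and 2.25, 1.93 and 1.83 CPM with PRP, with all PRP libraries below all controls and a log2 fold change of -0.67 ± 0.27 unpaired (SE; edgeR unadjusted p = 0.0309, blocked adjusted p = 0.34), and Spock2, a matrix proteoglycan, had a blocked value of 0.16 ± 0.064. Among the 28 sheddase substrates 16 lay below 0. Kitl, the ligand of the KIT receptor, which ADAM17 can release from granulosa cells, had 363, 419 and 350.1 CPM in the controls and 275, 395 and 340.4 CPM with PRP and a blocked value of -0.18 ± 0.066, and Sdc4, a heparan sulphate proteoglycan of the cell surface, one of -0.11 ± 0.047 (SE). Their blocked edgeR adjusted p-values were 0.355 and 0.384.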

How the data were processed

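The authors deposited raw counts per gene symbol for 6 libraries (27098 genes), made on GRCm38/mm10 per the submitters' processing notes. Aligner, counting tool, annotation and strand setting were not given in the sources used here, so reads of overlapping genes (26 of the 68 members) are uncertain. Columns were matched to samples by title; the column of PRP 3 has its letters in another order. The test was that of edgeR 4.0.16 under R 4.3.3 (filterByExpr, TMM, robust quasi-likelihood F test, two-sided, Benjamini-Hochberg over 17475 genes at 0.05), unpaired and with the replicate number as a block, since all 3 same-number correlations were above 0.1. DESeq2 1.42.0, limma-voom (limma 3.58.1), other scalings and filters and leaving out libraries were alternatives; DESeq2, the other scalings and filters, and a GC and length correction within the block were added after seeing the data. A standard error is the log2 fold change divided by the square root of F. CPM use TMM library sizes, pair differences log2 CPM with a prior count of 2, and levels between genes the longest GENCODE transcript (68 of 68 matched). The script was tested on simulated data. Promoter sequences are RefSeq's (40 of 68 members); the 25 bases after the start were found in a GENCODE transcript of the gene for 33 of 45 windows, and reversed in 0. Pairs of libraries differed beyond counting noise (chi-square per degree of freedom 8.85 to 32.0). The members and lists were chosen with earlier results of these data known. Named were all TIMP and HTRA genes, the 3 most abundant tested members of each of 12 classes per kilobase, members past the threshold, the 5 with the smallest p in each fit, 7 genes with known ovarian roles, and the 2 genes of the smallest blocked p per list; Mmp7, Mmp8, Mmp12, Mmp17, Mmp24, Adam19, Adamts6, Adamts7 and Adamts18 were named after their values were seen.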

Additional observations from a re-analysis of the deposited data

How the results depend on the processing

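Without the block, 0 members passed under every alternative run. The replicate block moved the genes past the threshold from 0 to 21 and the members from 0 to 1 (Htra3); it changed no other member's call. Within the block, the alternatives added after seeing the data gave 44 genes in DESeq2, 333 without a filter and 11 with the GC and length correction, and those planned gave 0 in limma-voom (1961 at an unadjusted p under 0.05) and 0 without robust estimation (1901). Members past it within the block were 5 without a filter (Htra3, Htra1, Mmp14, Timp1 and Adamts9), beside the 333 genes, whose share is not given. Htra3 also passed in DESeq2, with the other scalings and with the stricter filter. Members past it were 0 in limma-voom (12 unadjusted), without robust estimation (13) or with the GC and length correction. Leaving out number 1, 2 or 3 as a replicate pair within the block gave 1 to 19 genes (3, 1 and 19) and 0 members each. Leaving out 1 library in turn, the members' median log2 fold change ran from 0.0065 to 0.11. Direction changed without 1 library for 19 named members, all past no threshold in any of these fits, with log2 fold changes of -0.082 to 0.11 (Htra2), -0.20 to 0.29 (Htra4), -0.027 to 0.11 (Timp3), -0.018 to 0.024 (Adam17), -0.086 to 0.057 (Adam9), -0.040 to 0.24 (Adam23), -0.039 to 0.50 (Adam5), -1.49 to 0.28 (Adam3), -0.072 to 0.083 (Adamts1), -0.15 to 0.13 (Adamts4), -0.031 to 0.27 (Adamts19), -0.15 to 0.15 (Adamts16), -0.043 to 0.15 (Adamts2), -0.33 to 0.33 (Mmp10), -0.46 to 0.37 (Mmp13), -0.062 to 0.19 (Mmp16), -0.034 to 0.14 (Mmp23), -0.29 to 0.32 (Mmp19), -0.18 to 0.33 (Mmp9). Other reversals were Adamts4 at 0.000143 in limma-voom, 0.000369 without a filter and 0.000118 with the stricter filter, and Mmp10 at -0.10 in limma-voom and -0.073 with the replicate block. The cause was not tested. Other scalings moved the all-gene median by at most 0.0023. With 3 libraries a group and a biological coefficient of variation of 18.3%, small changes of scarce members were not detectable. Abundant members shared this limit in the unpaired fit, where Mmp2 had a log2 fold change of 0.13 ± 0.13 (SE).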
